A study of Mus musculus with 8 samples.

Results

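Krt23 and Wfdc2 are epithelial genes whose liver signal was followed here across wild type mice, mice lacking Abcb4 and Abcb4 knockouts given the bile acid norUDCA. Each is represented by 1 probe, found through its RefSeq accession (NM_033373 for Krt23, NM_026323 for Wfdc2), so the genes make up 2 of the 33012 gene probes on the array and 2 of the 310 genes that could be named. Both were chosen by their signal in these same arrays: neither was detected in wild type liver and both were detected in every knockout sample. Their differences from wild type are therefore given as a description, with no test. The comparisons of treated with untreated knockouts are tested, but they share the untreated knockout arrays with that choice. The comparison of the treatment lengths with each other uses no untreated array, but its arrays too entered the choice, since both genes had to be detected on them.

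The samples were whole livers of male FVB/N mice aged 3 months, measured as total RNA on single-colour Applied Biosystems arrays. The 4 groups had 2 arrays each: untreated wild type (WT), untreated Abcb4 KO (KO), Abcb4 KO given norUDCA for 3 days, and Abcb4 KO given norUDCA for 4 weeks. The labels give no dose, no vehicle and no wild type group on norUDCA, so effects of the drug could be read only on the knockout background. Replicates are known only by the number in their title, and nothing says that they were separate animals, so the spread behind each p-value could be partly technical.

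Abcb4 (also called Mdr2) carries phosphatidylcholine across the canalicular membrane into bile. Without phospholipid, bile acids injure the epithelium of the bile ducts, and the mice develop a sclerosing cholangitis with a ductular reaction, an expansion of bile duct cells at the portal tracts. norUDCA is a side-chain shortened form of ursodeoxycholic acid that is secreted into bile and taken up again by bile duct cells. Krt23 is a type I keratin, an acidic subunit of intermediate filaments, known as a stress-inducible keratin of ductular reactions in injured liver. Wfdc2, also called HE4, is a small secreted protein of the whey acidic protein family, whose members carry disulfide-bonded cores and include protease inhibitors, and it is made by many glandular and duct epithelia.

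The stretches just upstream of both genes are shown because the genes were both high in the knockout but differed in their level after 4 weeks of norUDCA. They are the 250 bases before the annotated start site, from RefSeq (GRCm38.p6), 5′ to 3′ on the strand of the gene. Krt23 lies at chr11:99493121-99493370 (minus strand) and Wfdc2 at chr2:164562465-164562714 (plus strand, 1 of 2 listed start sites). Capitals mark matches, on either strand, to the motifs named after them.
Krt23: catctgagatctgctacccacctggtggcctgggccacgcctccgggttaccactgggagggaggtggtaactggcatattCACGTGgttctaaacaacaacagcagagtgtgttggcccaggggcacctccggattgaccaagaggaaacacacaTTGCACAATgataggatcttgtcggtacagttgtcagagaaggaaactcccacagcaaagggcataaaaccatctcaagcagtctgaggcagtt
Wfdc2: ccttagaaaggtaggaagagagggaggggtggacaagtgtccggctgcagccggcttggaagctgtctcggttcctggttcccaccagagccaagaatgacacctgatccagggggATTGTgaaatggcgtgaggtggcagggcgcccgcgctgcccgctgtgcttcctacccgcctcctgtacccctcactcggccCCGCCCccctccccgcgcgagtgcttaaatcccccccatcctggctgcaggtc

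The Krt23 stretch held an E-box (CACGTG) 169 bases upstream, present in 6.02% of all 32851 upstream stretches of this length. It also held a C/EBP motif (TTGCNNAA, 9.56% of stretches) 94 bases upstream, which overlaps a SOX core (ACAAT, 27.7%) starting 90 bases upstream. The Wfdc2 stretch held a SOX core 134 bases upstream and a GC box (GGGCGG, 32.7%) 53 bases upstream. Its GC content was 64.8%, above that of 82.3% of stretches, against 52.8% for Krt23 and a median of 52.4%. The SOX core was thus the only motif of the 10 searched that both stretches held. Neither stretch held the AP-1 motif TGANTCA, which 6.75% of stretches hold, or the TEAD motif GGAATG, which 12.6% hold. The same was true of a CCAAT box, found in 33.8% of stretches, and of a TATA box (letters TATAAA) in 12.4%. The long HNF1 motif (0.00913%) and inverted-repeat FXR motif (0.00609%) were rare everywhere and absent here too. A match is a description of the letters and not a measured binding site.

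Signal is the background-subtracted brightness of a spot, and a probe is called detected on an array when its signal over noise was 3 or more. Between 33.3% and 47.9% of gene probes were detected per array. The WT arrays were dimmer throughout: their positive control spots had median signals of 1691 and 2062, against 6104 to 7913 on the 6 knockout arrays. Levels below are therefore given as raw signal, on a log2 scale after quantile normalization, which gives all arrays the same distribution, and against the positive controls. All 8 hepatocyte genes of a list of 23 that had a named probe passed the filter on dim probes, and their values are given at the end, since several differed between groups. Of 20 bile duct cell markers, Krt23 and Wfdc2 were the only genes with a named probe. Of 45 symbols listed for ductular reaction and injured epithelium, 0 had one. The arrays thus hold no independent named marker against which a bile duct origin of the signal could be checked, and in whole liver more cells of a type and more RNA per cell cannot be told apart.

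Krt23 was not above background in WT liver, highest in untreated knockouts, and lower at each treatment length. In WT its raw signal was 96.2 and 56.1, equal to the noise of the spots, so that these values are noise and not levels. In KO it was 2061 and 2099, with spot noise of 2.15% and 3.62% of the signal. After 3 days of norUDCA it was 1405 and 387, and after 4 weeks 298 and 189. The KO arrays stood above the other 6, and the 4-week arrays lay below both 3-day arrays.

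After normalization, Krt23 stood at 6.67 and 6.10 log2 in WT, 10.53 and 11.01 in KO, 10.23 and 8.67 after 3 days, and 7.76 and 7.29 after 4 weeks. The order of group means was KO, 3 days, 4 weeks, WT, and no neighbouring groups overlapped. Ranked among all gene probes of its own array, which needs no scaling, Krt23 was at the 79.4 and 82.7 percentile in KO and at 77.3 and 66.2 after 3 days. It was at 58.9 and 53.8 after 4 weeks, and at 41.7 and 28.0 in WT. Detection at 4 weeks was marginal: signal over noise was 3.16 and 3.20, just inside the limit of 3, and neither array would be detected at a limit of 5.

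Wfdc2 was likewise not above background in WT liver, but unlike Krt23 it was highest after 4 weeks of norUDCA. Its raw signal in WT was 104 and 92.5, again equal to the spot noise, with signal over noise of 0.65 and 0.91. It was 819 and 1179 in KO, 1054 and 420 after 3 days, and 2093 and 1883 after 4 weeks. The 4-week arrays were the brightest of the 8, and the KO and 3-day arrays overlapped.

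On the normalized scale Wfdc2 stood at 6.88 and 6.93 log2 in WT, 9.20 and 10.19 in KO, 9.79 and 8.78 after 3 days, and 10.40 and 10.35 after 4 weeks. The order of group means was 4 weeks, KO, 3 days, WT. Both 4-week arrays exceeded both KO arrays, the higher of them narrowly. The weakest detected value was on replicate 2 of the 3-day group, where signal over noise was 3.32.

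**Figure D1:**
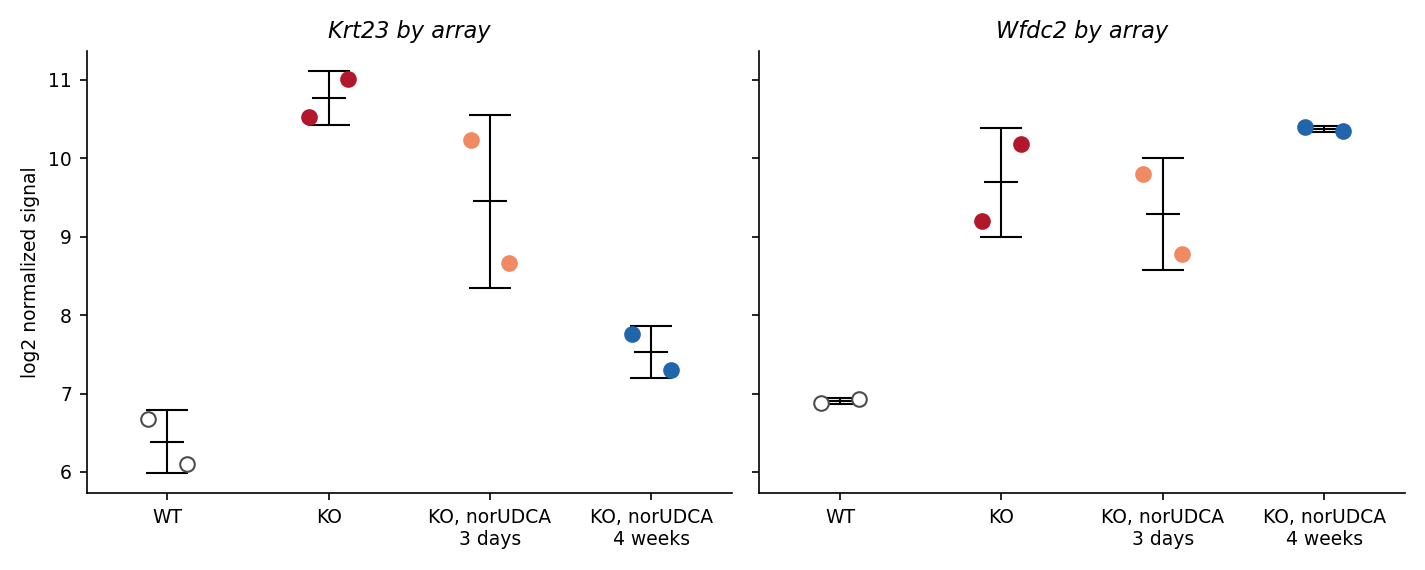
Log2 normalized signal of Krt23 (left) and Wfdc2 (right) on each of the 8 arrays, in 4 groups of 2. Filled points were detected and open points were not; lines give the group mean and bars 1 SD. Krt23 steps down from 10.77 in KO to 7.53 after 4 weeks, while Wfdc2 stands at 9.69 in KO and 10.38 after 4 weeks.

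The first comparison asked how untreated knockouts differed from wild type, and it is the one that chose both genes. Krt23 averaged 6.39 ± 0.40 log2 (SD, n = 2) in WT and 10.77 ± 0.34 (SD, n = 2) in KO. The difference was 4.38 ± 0.55 (SE of the fit), or 20.6-fold over the WT noise floor. Wfdc2 averaged 6.91 ± 0.04 (SD, n = 2) in WT and 9.69 ± 0.70 (SD, n = 2) in KO. Its difference was 2.79 ± 0.44 (SE), or 6.91-fold over that floor. The floor of a WT array is the listed noise of the spot or the dimmest detected probe, whichever was higher. A spot at up to 3 times its noise would also go undetected, so smaller folds are possible. The folds hold for the quantile scale only, without allowing for the spread between arrays. Of the 16728 probes tested, 0.126% had a larger difference in size than Krt23 and 0.843% a larger one than Wfdc2. For both genes the KO arrays lay above the WT arrays, as they did for 28.5% of all tested probes. Against the positive control spots, the differences were 2.86 for Krt23 and 1.37 for Wfdc2. The dimness of the WT arrays and the genotype cannot be told apart in this design.

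Detection on every knockout array and on neither WT array was shared by 382 of 28859 unflagged gene probes (1.32%). Besides Krt23 and Wfdc2, the named genes among them were Wars2, a mitochondrial tryptophanyl-tRNA synthetase, and Lgals7, a galectin of stratified epithelia. These 382 probes were set apart after the values of both genes were seen, and they serve as a description of where the genes lie among probes of like detection. In KO minus WT, 11 of the 382 had a larger difference than Krt23 and 49 a larger one than Wfdc2, around a median of 1.65.

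After 3 days of norUDCA, the question was whether either gene differed from the untreated knockout. Krt23 averaged 9.45 ± 1.10 log2 (SD, n = 2), a difference from KO of -1.32 ± 0.55 (SE, 95% interval -2.66 to 0.02). It did not pass (adjusted p = 0.32, limma over 16728 probes), although both 3-day arrays lay below both KO arrays, as did those of 28% of tested probes. Wfdc2 averaged 9.29 ± 0.72 (SD, n = 2), a difference of -0.41 ± 0.44 (SE, interval -1.49 to 0.68), which did not pass either (adjusted p = 0.71, limma). Over all tested probes, 0.0717% were called lower at this time by limma.

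The 3-day mean of both genes rests on arrays that differ widely. Replicate 1 exceeded replicate 2 by 1.56 log2 for Krt23, a gap larger than that of 94.96% of tested probes. For Wfdc2 it did so by 1.01, a gap larger than that of 87.4%. The median size of that gap over all tested probes was 0.29, and the arrays correlated at 0.968 over tested probes. Both genes were thus lower in the same sample. Without replicate 2 the difference from KO was -0.54 for Krt23 and 0.10 for Wfdc2, and without replicate 1 it was -2.10 and -0.91.

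After 4 weeks, Krt23 averaged 7.53 ± 0.33 log2 (SD, n = 2), which was 3.24 ± 0.55 (SE) below KO, or 9.47-fold (95% interval of the difference -4.58 to -1.90). The difference was larger than the spread within either group, and only 0.167% of tested probes had one of greater size. It did not pass over all tested probes (adjusted p = 0.18, unadjusted p = 0.0010, limma). With arrays scaled to the same median in place of quantile normalization the difference was -3.30 and passed (adjusted p = 0.047, limma); over all alternatives the adjusted p ran from 0.047 to 0.69. Few probes passed in this comparison at all: 0.0179% were called lower and 0.0299% higher. Both 4-week arrays lay below both KO arrays, as for 21.6% of tested probes.

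Wfdc2 did not follow. It averaged 10.38 ± 0.04 log2 (SD, n = 2) after 4 weeks, a difference from KO of 0.68 ± 0.44 (SE, 95% interval -0.40 to 1.77) that did not pass (adjusted p = 0.74, limma). Both 4-week arrays exceeded both KO arrays, as for 21% of tested probes. Without KO replicate 1 the difference was 0.19, and without KO replicate 2 it was 1.17. The lower bound of its interval, -0.40, lies above the upper bound of that for Krt23, -1.90. These intervals are not adjusted for the number of probes and share the KO arrays that entered the choice of both genes. Their position is therefore a description and no test of a difference between the genes.

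**Figure D2:**
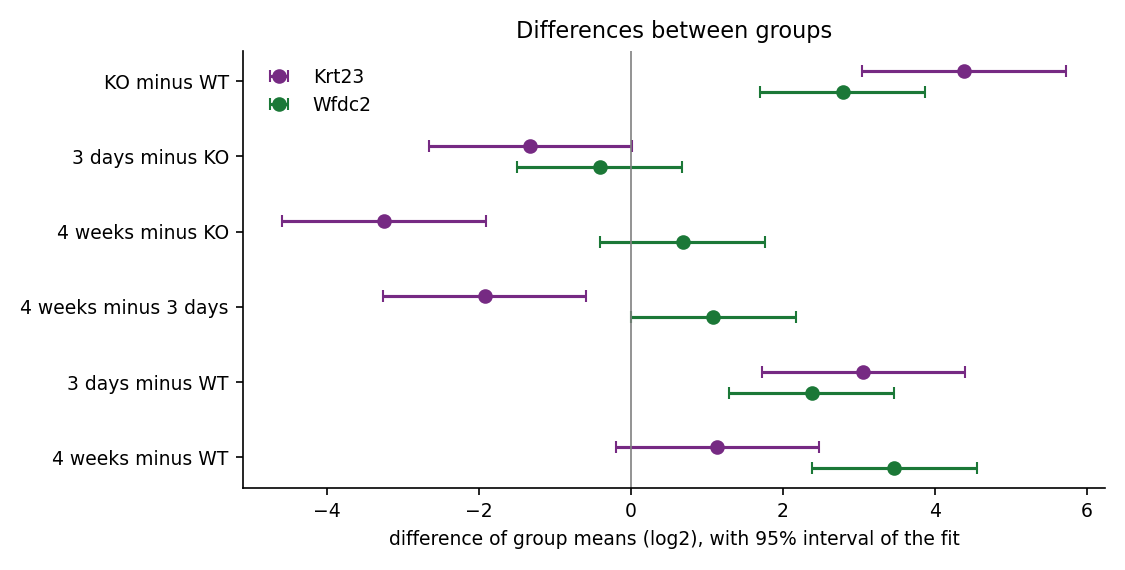
Differences of group means on the log2 scale for Krt23 (upper point of each pair) and Wfdc2 (lower point) in the 6 comparisons, with 95% intervals of the limma fit. Krt23 is at -3.24 and Wfdc2 at 0.68 in the comparison of 4 weeks with KO, where the intervals of the genes do not overlap. The intervals are not adjusted for the number of probes, and their overlap is no test of a difference between the genes.

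Among the 382 probes detected on every knockout array and on neither WT array, none had a 4-week difference from KO lower than that of Krt23, and 45 had one higher than that of Wfdc2. Their median was 0.02, with quartiles of -0.35 and 0.41, so the middle of these probes lay near the KO level after 4 weeks. All of them had to stay detected after 4 weeks, and in KO minus WT their median was 1.65 and their upper quartile 2.31. Most thus had little room to fall as far as Krt23 and remain in the set. The place of Krt23 at the lower edge was therefore partly fixed by that rule. Of these probes, 24.6% had both 4-week arrays below both KO arrays and 18.6% had both above. A decrease in steps, with KO above 3 days and 3 days above 4 weeks and no overlap between neighbouring groups, was seen for 12 of the 382 (3.14%), Krt23 among them.

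**Figure D3:**
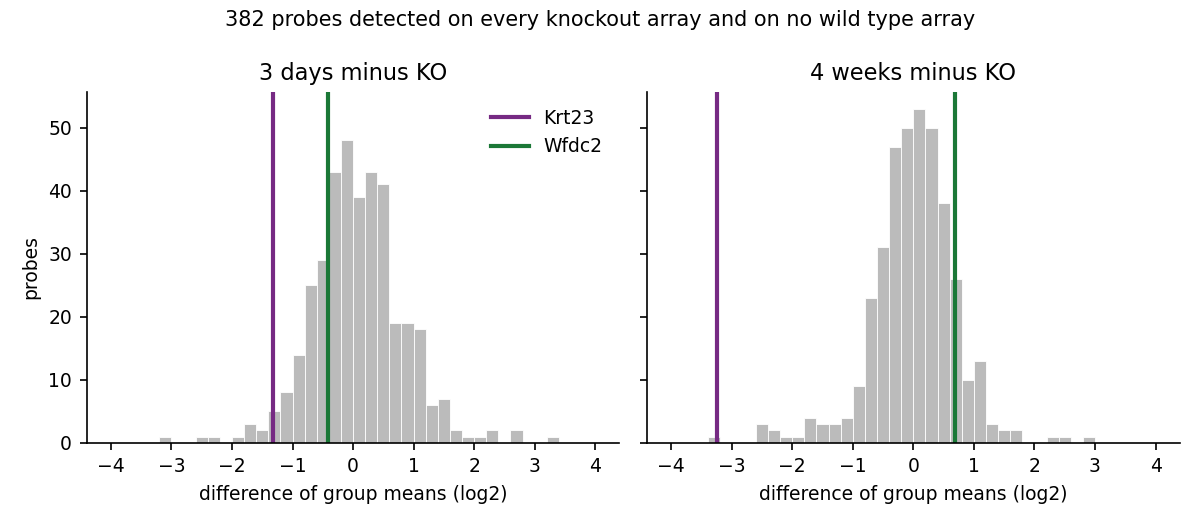
Number of probes (vertical axis) by the log2 difference of group means from KO after 3 days (left) and 4 weeks (right), for the 382 probes detected on all 6 knockout arrays and neither WT array. Vertical lines mark Krt23 and Wfdc2. Krt23 lies at the lower edge after 4 weeks, at -3.24, and Wfdc2 to the right of the median of 0.02. Probes that fell below detection on a treated array are not in the set.

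Whether both genes moved by unequal amounts was read within each array, as the log2 signal of Krt23 minus that of Wfdc2, of which only the change between groups has a meaning. It was 1.33 and 0.83 in KO, 0.44 and -0.11 after 3 days, and -2.64 and -3.05 after 4 weeks. Both 4-week arrays lay below the other 4 knockout arrays. In WT both probes were at noise, so the quantity has no reading there. From KO to 4 weeks it differed by -3.93, and from KO to 3 days by -0.92. An exact permutation test over arrays (two-sided) gave p = 0.33 for both, the smallest p that 2 against 2 arrays allow, so this test cannot reach 0.05. Because the quantity is a ratio within an array, scaling an array up or down does not change it. Quantile normalization, used for the values above, does more than scale and can change it. From KO to 4 weeks the difference was -4.15 with arrays scaled to the same median, and -3.58 with quantiles and an offset of 50.

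Between the treatment lengths, the group means of the genes differed in opposite directions, and neither difference passed. Krt23 was 1.92 ± 0.55 log2 (SE, 95% interval -3.26 to -0.58 for 4 weeks minus 3 days) lower after 4 weeks and did not pass (adjusted p = 0.44, unadjusted p = 0.013, limma). Wfdc2 was 1.09 ± 0.44 (SE, interval 0.00 to 2.17) higher and did not pass (adjusted p = 0.55, unadjusted p = 0.049, limma). The 4-week arrays lay below both 3-day arrays for Krt23, as for 20.7% of tested probes, and above both for Wfdc2, as for 25.3%. By limma 0% of tested probes passed here in either direction, while 1499 (8.96%) had an unadjusted p under 0.05. Without replicate 2 of the 3-day group the differences were -2.69 and 0.58, and without replicate 1 they were -1.11 and 1.59.

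Treated knockouts were last compared with WT, again as a description. Krt23 was 3.06 ± 0.55 log2 (SE) above WT after 3 days, or 8.26-fold over the WT noise floor. After 4 weeks it was 1.14 ± 0.55 (SE, 95% interval -0.20 to 2.48) above WT. No fold is given at 4 weeks, because the difference was 0.22 with cyclic loess and -0.14 against the positive controls. Wfdc2 was 2.38 ± 0.44 (SE) above WT after 3 days, or 5.21-fold over that floor. After 4 weeks it was 3.47 ± 0.44 (SE) above WT, or 11.1-fold over the floor. For both genes the treated arrays lay above the WT arrays, as for 30.7% of tested probes after 3 days and 30.9% after 4 weeks.

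The distance of Krt23 from WT after 4 weeks depended on the scale. As a percent of the median positive control signal of its array it was 5.69 and 2.72 in WT, both noise values, and 4.25 and 3.01 after 4 weeks, so the groups overlapped. It was 26.0 and 31.5 in KO and 21.2 and 6.34 after 3 days. With cyclic loess, which removes differences between arrays that vary with brightness, the 4-week and WT groups overlapped too. The same scale left Wfdc2 apart from WT at 4 weeks: it was 29.9 and 30.0 percent, against 6.15 and 4.49 in WT, 10.3 and 17.7 in KO, and 15.9 and 6.88 after 3 days.

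**Figure D4:**
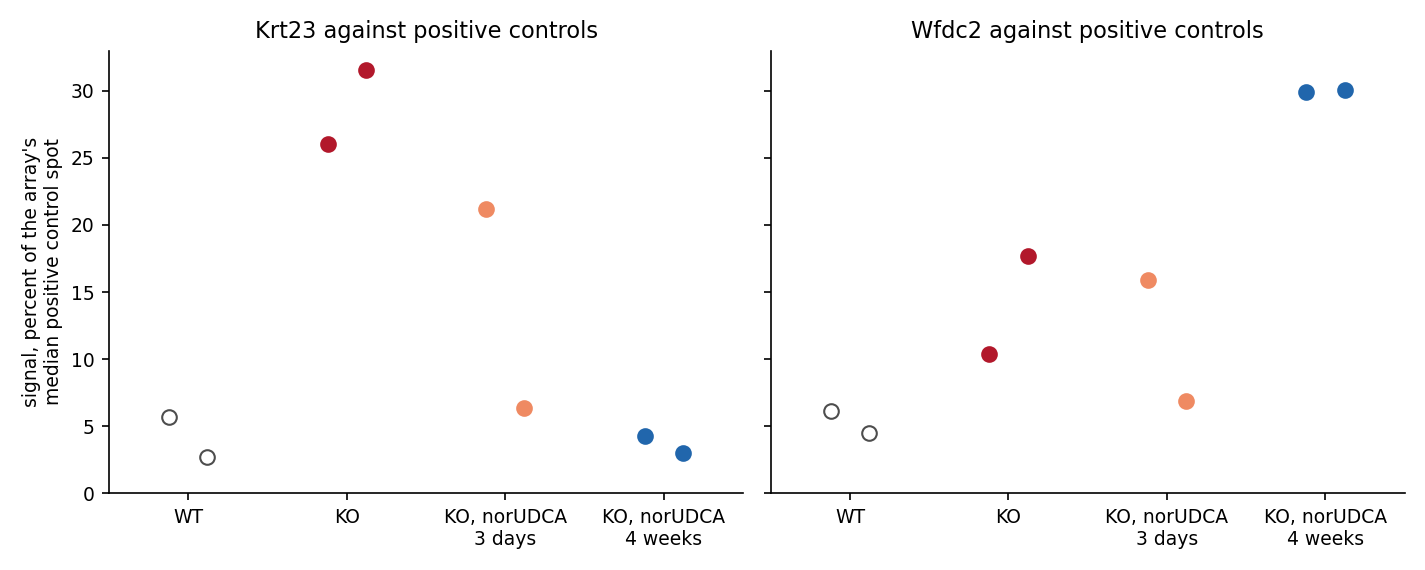
Raw signal of Krt23 (left) and Wfdc2 (right) as a percent of the median positive control signal of the same array, from 0, on each of the 8 arrays; open points were not detected. Krt23 after 4 weeks (4.25 and 3.01) lies within the range of the undetected WT spots (5.69 and 2.72), and Wfdc2 after 4 weeks (29.9 and 30.0) is above all other arrays.

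Across the 8 arrays the genes correlated with each other at r = 0.57, and 11.3% of tested probes were closer to Krt23 than Wfdc2 was. Over the 6 knockout arrays alone r was -0.28. These values, and those that follow, are descriptions over arrays that share their scaling and whose groups differ in brightness. The named genes with the most similar course to Krt23 were Nt5m, Lgals7, Jun, Scg2 and Dhrs7b, with r from 0.83 to 0.91 over 8 arrays and from 0.73 to 0.84 over the 6 knockout arrays. Jun, a subunit of the AP-1 transcription factor, stood at 11.70 and 11.07 log2 in WT, 12.94 and 12.48 in KO, 12.93 and 12.63 after 3 days, and 11.16 and 11.23 after 4 weeks. Its 3-day arrays overlapped with KO and its 4-week arrays lay in the range of WT. Nt5m, a mitochondrial nucleotidase and the closest of the 5, spanned much less, from 10.43 to 11.16 log2. Scg2, which encodes a secretogranin of neuroendocrine granules, was detected on 2 of the 8 arrays, both in KO. Dhrs7b, a reductase of ether lipid synthesis, spanned 12.14 to 12.77.

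The genes most similar to Wfdc2 were Slc47a1, Zfp979, Wdfy1, Ramp3 and Bcl2a1b, with r from 0.87 to 0.89 over 8 arrays. Over the knockout arrays alone Bcl2a1b (0.85), Ramp3 (0.84) and the zinc finger gene Zfp979 (0.78) stayed closest. Bcl2a1b, an anti-apoptotic Bcl2 relative of leukocytes with close paralogs that its probe may also measure, stood at 9.31 and 7.76 log2 in WT, 9.90 and 10.83 in KO, 9.66 and 9.53 after 3 days, and 10.74 and 10.51 after 4 weeks. Slc47a1, an exporter of organic cations in the canalicular membrane, stood at 12.84 and 12.65 in WT and between 13.27 and 13.83 on the knockout arrays. Ramp3, a partner protein of calcitonin-family receptors, was detected on 4 arrays, the untreated KO and 4-week ones. Wdfy1, an adaptor of endosomes, lay at 8.95 and 9.40 in WT and between 9.89 and 10.38 in the knockouts.

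**Figure D5:**
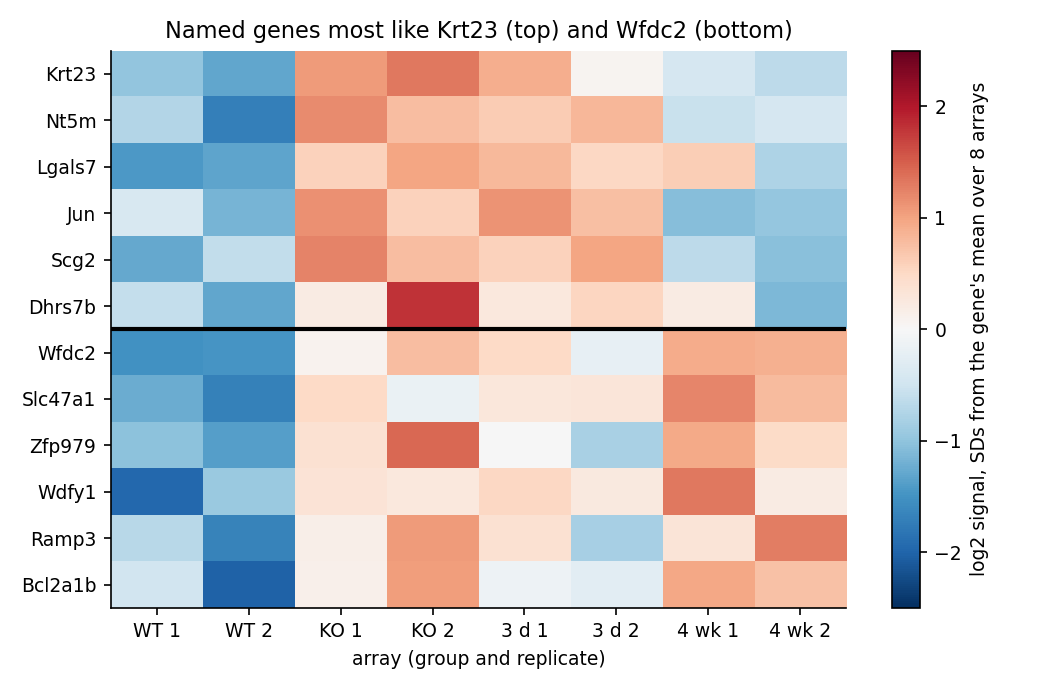
Log2 signal of Krt23, Wfdc2 and the 5 named genes most like each, shown in colour as SDs from the gene's own mean over 8 arrays (columns, by group and replicate). The Krt23 block is high in KO and low in both 4-week columns for Krt23, Nt5m, Jun and Scg2, while the 4-week columns of the Wfdc2 block are at or above the mean.

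Relatives of both genes added little. Of 50 keratin symbols, Krt25 and Krt27, type I keratins of the hair follicle sheath, had a named probe besides Krt23. Krt27 was detected on 0 of 8 arrays, and Krt25 was left out because its spot carried a quality flag. Of 25 symbols of the whey acidic protein family, Wap itself, the milk protein that names it, had a named probe besides Wfdc2 and was detected on 1 array. Neither relative was therefore tested.

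Genes of hepatocytes, the main cells of the liver, were not steady across the groups. Of the 8 with a tested probe, limma called 1 lower and 0 higher in KO than in WT. At 3 days 3 were lower and 0 higher, and at 4 weeks 3 were lower and 1 was higher. Over all tested probes the shares called higher and lower were 0.813% and 0.317% in KO, 3.58% and 2.2% after 3 days, and 1.59% and 0.676% after 4 weeks. The median difference of the 8 from WT was -1.02, -1.64 and -2.52 log2, against 0.09, 0.07 and 0.09 over all tested probes. These genes were among those put on the list with earlier results of these data known, so the counts describe them and support nothing about hepatocytes at large. The same holds for the calls and adjusted p-values of single genes below, which are a description and no independent test.

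Dio1, the deiodinase that activates thyroid hormone, stood at 14.35 and 14.81 log2 in WT, 12.13 and 12.75 in KO, 10.03 and 9.87 after 3 days, and 9.84 and 9.93 after 4 weeks. It was lower than WT by limma in all 3 knockout groups (differences of -2.14, -4.63 and -4.70; adjusted p = 0.039, 0.0063 and 0.0086), although in KO it did not pass with arrays scaled to the same median (adjusted p = 0.105, limma) or with cyclic loess (adjusted p = 0.055, limma). Hsd3b4, a hydroxysteroid dehydrogenase, stood at 15.54 and 15.11 in WT, 14.28 and 11.23 in KO, and 6.01 and 8.67 after 3 days. After 4 weeks it stood at 5.62 and 6.17 and was not detected. It was lower than WT after 3 days and after 4 weeks (adjusted p = 0.027 for both, limma).

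The other calls were Fgf21 after 3 days, and at 4 weeks Sult5a1 and Aldh3a2. Fgf21, a hormone of the fasted liver, was lower than WT after 3 days by limma (difference -5.22, adjusted p = 0.040). It was about as low in untreated KO (-5.07, adjusted p = 0.073, limma) and after 4 weeks (-4.84, adjusted p = 0.067, limma). Its difference in 3 days minus KO was -0.15, and its WT arrays stood apart, at 12.58 and 9.98 log2. With arrays scaled to the same median, KO and 4 weeks minus WT passed too (adjusted p = 0.011 and 0.0098, limma). With cyclic loess neither did (adjusted p = 0.088 and 0.066, limma). Sult5a1, a sulfotransferase, was lower than WT (-3.35, adjusted p = 0.048, limma) and Aldh3a2, a fatty aldehyde dehydrogenase, was higher (1.23, adjusted p = 0.044, limma). With cyclic loess these calls at 4 weeks were lost (adjusted p = 0.055 and 0.058, limma), and the Aldh3a2 call also against positive controls (adjusted p = 0.176, limma). Mup1, a urinary protein gene with near-identical copies, lay between 19.79 and 20.68 log2 on the 8 arrays. Pemt, which makes phosphatidylcholine, differed from WT by 0.42, 0.38 and 0.41, and G6pc, of glucose release, by -0.53, -1.65 and -1.69. None of these passed after quantile normalization. Against positive controls G6pc passed in each comparison with WT (adjusted p = 0.043, 0.010 and 0.039, limma). Mup1 was lower than WT there in KO (-1.77, adjusted p = 0.024, limma) and after 3 days (-1.30, adjusted p = 0.035, limma). After 4 weeks it did not pass (adjusted p = 0.058, limma). On that scale the median of all tested probes in KO minus WT was -0.85. With an offset of 50 G6pc passed after 3 days only (adjusted p = 0.039, limma).

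Between treated and untreated knockouts, and between the treatment lengths, limma called 0 of the 8 in either direction in the main setting. Dio1 in 3 days minus KO was near the threshold there (adjusted p = 0.053, limma). It passed with cyclic loess (adjusted p = 0.045, limma) and with an offset of 50 (adjusted p = 0.030, limma). In 4 weeks minus KO, Dio1 passed with that offset (adjusted p = 0.047, limma). Hsd3b4 passed after 3 days and 4 weeks with arrays scaled to the same median (adjusted p = 0.042 and 0.018, limma). At an unadjusted p under 0.05 (limma) there were 4 of the 8 in 3 days minus KO, 5 in 4 weeks minus KO and 1 in 4 weeks minus 3 days. The shares of all tested probes at that cut were 16.1%, 8.75% and 8.96%. Over all tested probes 0.161% were called higher in 3 days minus KO. In 4 weeks minus KO the median of the 8 was -0.74, with Hsd3b4 at -6.86, Dio1 at -2.55 and Aldh3a2 at 1.10. Dio1 and Hsd3b4 thus had their lowest values on treated arrays, where Krt23 was also below KO, and their part in the levels of Krt23 and Wfdc2 was not tested.

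Of the remaining cell types, Ccl21a, 1 of 11 lymphoid genes, was the only marker with a named probe. Lists for macrophages (10 genes), neutrophils (8), fibroblasts and stellate cells (14), endothelium (8) and dividing cells (5) had no named probe. Ccl21a, a chemokine of lymphoid stroma whose near-identical copies the probe may also measure, stood at 6.17 and 7.72 log2 in WT, 9.30 and 10.90 in KO, 8.19 and 8.58 after 3 days, and 7.58 and 9.40 after 4 weeks. Its KO arrays were high along with Krt23, and its part in the levels of Krt23 and Wfdc2 was not tested.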

How the data were processed

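Each array has 1 scanner file, whose columns are, per the file headers, signal and its assay-normalized form, noise, signal over noise, and flags. The deposited signal is a linear intensity with background removed. Signal over noise is a deposited score with no fixed range. The deposited series table holds the assay-normalized intensity, equal within 0.06 for 100% of values. Image software is not given in the sources used here. The labels give 4 weeks for the longer treatment, whereas the file names of that group carry 14 days; this was not settled.

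Of 33012 gene probes, 4153 were dropped because an array flagged them at 5000 or above. The other 28859 were put on log2 and quantile-normalized, with no offset. The filter kept the 16728 probes whose signal over noise reached 3 on 2 or more of 8 arrays. limma 3.58.1 in R 4.3.3 (lmFit, eBayes) was fitted on all 8 arrays, with 4 residual and 1.96 prior degrees of freedom. Tests were two-sided with Benjamini-Hochberg adjustment over the filtered probes, with a threshold of 0.05, and the fit was tested on simulated data. The number of arrays limits the precision. Names came from a RefSeq table (GRCm38.p6), 311 probes by accession and 5 by synonym.

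Both genes, and the lists and motifs, were chosen with earlier results of these data known. Besides these genes, the text names listed genes with a probe and, for each of the pair, the 5 named tested genes with the highest Pearson correlation over 8 arrays.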

Additional observations from a re-analysis of the deposited data

Results flagged for a closer look

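The positive control spots, which are not gene probes and were used only as a scale, were brighter on knockout than on wild type arrays: the dimmest knockout array exceeded the brighter WT array 2.96-fold. Set against these spots, the median difference of all tested probes between KO and WT was -0.85 log2, against 0.09 after quantile normalization. Relative to the median of all tested probes on that scale, Krt23 was 3.71 and Wfdc2 2.22 higher in KO. No group had enough arrays to look for a single array that stood apart.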

How the results depend on the processing

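Across 14 results and 232 alternatives, 212 kept their direction and side of the threshold or moved by less than 1 SD. This count is no measure of stability, because its rules fixed part of it. No tested difference passed in the main setting, so one could change size widely and still be counted as kept. Within-array differences were counted as kept whenever their sign held. Keeping dim probes, adding the replicate number to the fit, or fitting only the groups compared cannot change a log2 difference. Scaling against positive controls was chosen after seeing the data. It gave 2.86, 1.56 and -0.14 (reversed) for Krt23 in KO, 3 days and 4 weeks minus WT, and 1.37, 0.99 and 2.51 for Wfdc2. Cyclic loess gave 3.66, 2.35 and 0.22 for Krt23, and 2.11, 1.74 and 2.80 for Wfdc2. With an offset of 50, Krt23 in KO minus WT was 3.74. With arrays scaled to the same median, where all tested probes had a median of 0.48 in KO minus WT (0.09 with quantiles), Krt23 in 4 weeks minus KO was -3.30 and passed (adjusted p = 0.047, limma; 0.047 to 0.69 over all alternatives). Relative to the median of all tested probes with same-median or positive control scaling, Krt23 in 4 weeks minus KO was -3.46 and Wfdc2 0.69.

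Leaving out 1 array at a time gave, for KO, 3 days and 4 weeks minus WT, 4.13 to 4.87, 2.22 to 3.85 and 0.88 to 1.51 for Krt23, and 2.33 to 3.24, 1.83 to 2.89 and 3.40 to 3.60 for Wfdc2. For 3 days minus KO it gave -2.10 to -0.54 for Krt23 and -0.91 to 0.10 for Wfdc2, which reversed without KO replicate 2 (0.08) and without replicate 2 of the 3-day group (0.10). For 4 weeks minus KO it gave -3.45 to -2.98 and 0.19 to 1.17, and for 4 weeks minus 3 days -2.69 to -1.11 and 0.58 to 1.59. Groups left with 1 array were assumed to vary like the others.

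With the replicate block, Krt23 in 4 weeks minus KO kept -3.24 (adjusted p = 0.32, limma), and no call changed. Same-numbered samples share only a number: their deviations correlated between -0.04 and 0.03 over the pairs of groups. Krt23 after 4 weeks and both genes in WT lie near or under the noise, which limits every value set against WT.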
